A study of Homo sapiens with 10 samples.

Results

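AD32 is a human lung cell line labelled resistant to discodermolide, and its transcripts were set against those of A549, a human lung adenocarcinoma line labelled sensitive. The comparison took the 3 arrays of AD32 and the 4 arrays of A549 in DMSO, 7 of the 10 arrays in the series, and covered all 18279 genes that a single-gene probe set measured. Discodermolide at 32 nM was present in the AD32 cultures, while the A549 controls received 0.01% DMSO as vehicle and no drug. A difference between the groups is therefore one of line and drug together, and the 2 cannot be told apart from these 7 arrays. No deletion, transgene or other agent is named for either group, and the labels do not say how AD32 was derived or whether it is 1 clone. Levels of the other 3 arrays are given beside those of AD32 where they help: A549 in 32 nM discodermolide, labelled senescent (2 arrays), and AD32 4E-BP1 in 0.01% DMSO, labelled sensitive (1 array). Each array was hybridised with labelled total RNA of 1 sample. The replicates are called biological in the labels, which do not say how they were kept apart, so p-values measure the spread between these samples. The fit pooled this spread over the 4 groups of the series, so the 2 treated A549 arrays enter it too.

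Discodermolide is a natural product that binds beta-tubulin, holds microtubules in the polymer and arrests dividing cells. Microtubules form the mitotic spindle, and between divisions they carry vesicles, receptors and signalling proteins through the cell. Lung carcinoma cells carry a surface made of keratin filaments, hemidesmosomes and cell junctions, they answer to cytokines through NF-kappaB, and they sense growth factors through receptor tyrosine kinases. These programmes, together with transporters, channels, transcription factors and the enzymes that act on microtubules, order the account that follows.

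All values are log2 signals as deposited, and a step of 1 is a doubling of signal. A gene is called when its limma p, adjusted by Benjamini and Hochberg's method across the 18279 genes, is under 0.05. In all, 1045 genes were called (5.72%), 644 of them higher in AD32 (3.52%) and 401 lower (2.19%). A call together with a change of at least 2-fold was met by 601 genes (3.29%). Genes whose AD32 arrays agreed are favoured here. A gene counts as agreeing when it was called with all arrays and in each of the 7 fits that left out 1 array, when the groups did not overlap, and when the 3 AD32 arrays lay within 0.5 of each other on the log2 scale. There were 190 agreeing genes (1.04%), 109 higher and 81 lower, with a median size of 1.15 on the log2 scale. The groups did not overlap at 1041 of the 1045 called genes and at 2812 of all 18279 genes. A lack of overlap at a called gene therefore adds little to its call. Unless a sentence says otherwise, a gene named as risen or fallen kept its call in all 7 leave-one-out fits. In bulk RNA, fewer cells that express a gene and less of its RNA per cell cannot be told apart.

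A pair of arrays stood apart from their groups. A549 DMSO replicate 1 had a mean level of 6.78 over 30 G2/M and mitosis genes, where the other 3 DMSO arrays had 9.79, 9.92 and 9.89 and the treated A549 arrays 6.56 and 6.81. AD32 replicate 3 had 9.53 for these genes against 5.27 and 6.16 on AD32 replicates 1 and 2. Over all genes, AD32 replicate 3 correlated with A549 DMSO replicates 2 to 4 at r = 0.9768, 0.9701 and 0.9702, and with AD32 replicates 1 and 2 at r = 0.9511 and 0.9579. A fit that dropped A549 DMSO replicate 1 called 2164 genes, one that dropped AD32 replicate 3 called 1965, and one that dropped both 5164. Dropping AD32 replicate 1 or 2 left 571 or 522 calls, and dropping A549 DMSO replicate 3 or 4 left 531 or 512. Replicates 3 and 4 of A549 in DMSO were nearly identical (SD of their difference 0.1603), and counting their mean as 1 array left 525 called genes. The array labelled AD32 4E-BP1 correlated most closely with A549 DMSO replicate 2 (r = 0.995), and its correlations with the AD32 arrays were 0.9319, 0.9391 and 0.9787. Beyond the fits that left out arrays, the part of these differences in the results was not tested.

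Marker genes were read for the identity of the cells. Of 6 epithelial markers 2 were called higher in AD32 (33.3%), KRT7 and CDH1, and the count was 1 with A549 DMSO replicate 2, 3 or 4 or AD32 replicate 1 or 2 left out. The mean level over the 6 was 9.76 to 9.83 on the AD32 arrays and 8.65 to 8.69 on the A549 DMSO arrays, but KRT7 differed by 4.65 and the median difference of the 6 was 0.35. Of 15 lung epithelial markers 1 was called (6.67%), FOXA1, and the count was 2 with AD32 replicate 3 left out. MTAP, CDKN2A and CDKN2B lie in the segment of chromosome 9 that A549 is known to lack. MTAP was below the lower quartile on each of the 7 arrays, at 4.24–4.72 in AD32 and 4.30–4.63 in A549 in DMSO. CDKN2A at 5.64–5.81 and 5.85–6.36, and CDKN2B at 6.24–6.73 and 6.03–6.69, were above it. That quartile therefore did not give 1 answer for the 3 genes. Between the lines none of the 3 was called. The ranges of MTAP and CDKN2B overlapped, and CDKN2A lay lower in AD32 than in A549 in DMSO. The keratin genes KRT8 and KRT18 of simple epithelium were high in both lines, at 13.28–13.73 and 13.77–14.00 in AD32. EPCAM, an epithelial surface marker, lay at 3.41–3.86 in AD32 and 3.30–3.63 in A549 in DMSO, below the lower quartile of each array. The mean level over the 15 lung markers was 6.17 to 6.61 in AD32 and 6.0 to 6.64 in A549 in DMSO, with 1 or 2 of them below the lower quartile of an array. Among them NKX2-1, the lung lineage factor, stood at 4.70–5.11 in AD32 and 4.61–4.96 in A549 in DMSO, around the lower quartile. The surfactant gene SFTPB read 5.41–5.72 and 5.27–5.86, and FOXA2, a factor of endoderm, 8.37–8.60 and 8.35–8.94. By limma 0 of 6 leukocyte and 0 of 6 endothelial markers were called, with 1 and 0 at an unadjusted p under 0.05. The leukocyte gene PTPRC stayed at or below 3.20 on the 7 arrays. Of 8 fibroblast markers 1 was called, COL3A1, which encodes a fibrillar collagen chain and fell 4.23-fold (adjusted p = 0.00789).

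Short promoter stretches of the genes that carry 2 of the patterns below are shown first. Promoter windows reach from 250 bases before to 50 after the start of a gene in RefSeq, on GRCh38.p14, and 14195 of the tested genes had one. The kappaB sequence GGAATTTCC, searched on both strands, is a common site form of the NF-kappaB factors. It was found in 0.444% of all windows and in 10 of the 25 windows of the NF-kappaB target list, 5 of them among the 10 windows of called members. The letters match in 5 called chemokine and feedback genes, and capitals mark them on the gene's own strand, with the reverse complement of the letters in NFKBIA. The stretches are chr4:73869299-73869339 (plus strand), chr4:74099248-74099288 (minus), chr4:73740462-73740502 (plus), chr14:35404806-35404846 (minus) and chr3:101827752-101827792 (plus), all written 5′ to 3′.
CXCL1: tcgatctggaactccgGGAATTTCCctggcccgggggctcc
CXCL2: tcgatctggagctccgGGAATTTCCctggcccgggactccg
CXCL8: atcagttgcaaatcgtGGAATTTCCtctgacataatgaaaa
NFKBIA: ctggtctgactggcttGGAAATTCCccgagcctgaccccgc
NFKBIZ: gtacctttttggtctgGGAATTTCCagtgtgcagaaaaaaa

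Another set comes from genes that were off in A549 and on in AD32. A gene counts as switched on when its 4 A549 DMSO arrays were below the lower quartile of their array and its 3 AD32 arrays above the median of theirs. There were 10 such genes, and 9 had a promoter window. The AP-1 sequence TGACTCA, on either strand, stood in 4 of these 9 windows (44.4%), against 3.56% of all windows and 4.92% of the 2480 windows of genes that were below the lower quartile on all A549 DMSO arrays. With so few windows this is a description, and both the motifs and the genes were picked with their levels known. Capitals mark the letters, which in these 4 promoters are the reverse complement as read on the gene's own strand. The stretches are chrX:15665015-15665055 (minus strand), chr12:13196534-13196574 (plus), chrX:30215488-30215528 (plus) and chr1:200027535-200027575 (plus).
CLTRN: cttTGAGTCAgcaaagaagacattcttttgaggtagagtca
EMP1: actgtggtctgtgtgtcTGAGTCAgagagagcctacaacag
MAGEB2: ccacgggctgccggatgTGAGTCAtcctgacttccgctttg
NR5A2: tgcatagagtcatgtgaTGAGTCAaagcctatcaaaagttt

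The switched-on genes also had few CpG dinucleotides in their windows, the places where promoter DNA can be methylated. Their median was 4 in 300 bases, near the median of 5 over the genes that were low on all A549 DMSO arrays, whereas all genes tested had a median of 23. MAGEB2 was the richest of the 9, with 21. Its 120 bases upstream of the start (chrX:30215443-30215562, plus strand) hold 10 of them, in capitals.
MAGEB2: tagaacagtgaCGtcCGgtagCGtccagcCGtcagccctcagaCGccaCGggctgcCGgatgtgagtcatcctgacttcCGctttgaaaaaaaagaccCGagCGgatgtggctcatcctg

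MAGEB2, a cancer-testis antigen gene on chromosome X that is normally expressed in the testis, had the largest difference of all agreeing genes. It stood at 9.96, 10.09 and 10.19 on the AD32 arrays and at 3.84, 3.78, 4.25 and 4.44 on the A549 DMSO arrays. Every A549 level was below the lower quartile of its array, as required of a switched-on gene. The AD32 levels were far above the highest of them. The mean rose 64.2-fold (log2 difference 6.0, SE 0.23, adjusted p = 3.18e-06). It was the only one of 43 X-linked cancer-testis genes to be called, a share of 2.33%. The 3 other arrays read 4.67 and 3.85 in treated A549 and 3.73 on the AD32 4E-BP1 array, like A549 in DMSO.

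The other switched-on genes encode proteins of the cell surface, of secretion and of the cell interior. SERPINB5 (maspin), a serpin of epithelial cells, stood at 10.83, 10.46 and 9.49 in AD32 and at no more than 4.26 in A549 in DMSO. SERPINB7, its neighbour family member on chromosome 18, stood at 8.39, 7.49 and 7.90 against 4.04–4.15. Both serpins separated the lines on every array, as the choice of switched-on genes required, by 83.7-fold and 14.3-fold in the mean. TSPAN8, a tetraspanin of epithelial membranes, was at 8.62, 8.86 and 7.47 against 3.21–4.01, and CLTRN (collectrin), which escorts amino acid transporters to the membrane, at 8.40, 9.47 and 8.83 against 4.01–4.47. EMP1, an epithelial membrane protein, rose 11.7-fold, from 4.36–4.42 to 7.63–8.25. GDA, the guanine deaminase of purine breakdown, was uneven in AD32 at 10.76, 8.40 and 9.21, yet far above the A549 range of 3.83–4.53, and the rise of 36.7-fold became 23.3-fold without AD32 replicate 1.

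SAMD9, an interferon-inducible antiviral factor, and IL31RA, a cytokine receptor subunit, differed from the rest of this set in the treated A549 arrays. SAMD9 rose from 4.40–4.64 in A549 in DMSO to 8.59, 8.35 and 8.26 in AD32, and the treated arrays read 6.03 and 7.14. IL31RA rose from 4.34–4.60 to 7.50, 6.80 and 7.17, with treated arrays at 5.84 and 5.51. In both cases the treated arrays lay between the lines, above all 4 DMSO arrays and below all 3 AD32 arrays. NR5A2, a nuclear receptor of liver and pancreas, was even in AD32 at 7.37, 7.47 and 7.37 and low in A549 in DMSO at 4.60, 4.61, 4.31 and 4.34 (7.68-fold, adjusted p = 7.74e-06).

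Genes went silent in AD32 by the same measure in 3 cases. EPHA5, an ephrin receptor, fell from 7.51, 8.0, 8.04 and 8.01 in A549 in DMSO to 4.71, 4.49 and 4.40 in AD32. SGCZ, a sarcoglycan gene, fell from 7.85, 6.97, 7.84 and 7.81 to 4.65, 4.10 and 4.33, and PART1, a long non-coding RNA gene, from 6.80, 7.12, 7.33 and 7.44 to 4.21, 4.04 and 4.15. None of the other 3 arrays showed the loss: treated A549 read 8.16 and 7.84 for EPHA5, 8.06 and 7.66 for SGCZ and 7.54 and 7.13 for PART1, and the AD32 4E-BP1 array 8.01, 7.09 and 7.60.

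Among the agreeing genes that rose was KRT7. This keratin of simple and glandular epithelia read 11.84, 11.74 and 11.76 in AD32 and 7.02, 7.40, 7.0 and 7.12 in A549 in DMSO, a 25-fold rise with the smallest adjusted p of the named genes (8.19e-07). SLPI, a secreted inhibitor of neutrophil elastase, read 11.14, 10.80 and 10.71 against 5.95, 5.96, 5.81 and 6.12. The groups did not overlap for either gene, as the choice of agreeing genes required. KRT7 varied by only 0.10 among the AD32 arrays. FSTL1, a secreted follistatin-like glycoprotein that binds BMP ligands, rose 20.7-fold from 5.50–5.83 to 9.83–10.28 (adjusted p = 3.18e-06). NID2 (nidogen 2), which links laminin to collagen IV in basement membranes, rose 14.3-fold to 9.66–10.04. Its A549 arrays spread more, at 5.88, 5.25, 6.31 and 6.42, and lay below AD32, as in all agreeing genes that rose.

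NEO1 (neogenin), a receptor for netrins and repulsive guidance molecules, rose from 5.61, 5.46, 5.29 and 5.27 to 9.19, 9.67 and 9.30 (15.7-fold, adjusted p = 3.6e-06). ZNF185, an actin-associated LIM-domain protein, rose 7.12-fold, and SHROOM3, which drives apical constriction of epithelial cells, 4.88-fold. GPC4, a heparan sulphate proteoglycan of the surface, rose 6.17-fold from 4.26–4.97, and LOXL4, a lysyl oxidase that cross-links matrix, 5.87-fold to 7.96–8.38. CDK14, a cyclin-dependent kinase tied to Wnt receptor phosphorylation, read 8.69, 8.56 and 8.49 against 6.0, 5.94, 6.19 and 6.09. VEPH1, a membrane protein with a pleckstrin homology domain, moved from 3.08–3.35 to 5.89–6.39. For ZNF185 the other arrays lay between the lines, at 7.77 and 7.63 in treated A549 and 7.80 on the AD32 4E-BP1 array.

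EPHA3, an ephrin receptor tyrosine kinase, fell furthest among the agreeing genes. Its levels were 4.89, 4.97 and 4.92 in AD32 and 9.80, 9.42, 9.86 and 9.95 in A549 in DMSO, a 28.4-fold fall (log2 difference -4.83, SE 0.16, adjusted p = 1.53e-06). The AD32 arrays spanned only 0.07, close to the lower quartile of the arrays, and treated A549 (9.32 and 8.96) stayed high. BCHE, the butyrylcholinesterase that hydrolyses choline esters, fell 11.8-fold from 8.48–9.30 to 5.37–5.60. LRRCC1, a centrosomal protein of the mitotic spindle pole, read 5.13, 4.86 and 5.13 against 6.91, 8.69, 8.49 and 8.48, and its A549 array at 6.91 was replicate 1, whose mitotic genes were also low. SLC2A12, a glucose transporter, read 5.0, 4.88 and 4.83 against 9.55, 8.13, 7.42 and 7.48, so the 4 A549 arrays themselves differed by more than 2 log2 units.

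Transcription and signalling factors were among the falls. LHX8, a LIM homeobox factor, fell 7.58-fold to 4.79–5.13, and CXXC5, a CXXC zinc finger protein that restrains Wnt signalling, fell 5.23-fold from 9.79–9.98 to 7.43–7.62 (adjusted p = 8.88e-06). SH3BP5, an exchange factor for RAB11 and a partner of JNK, fell 4.98-fold. ZYG11A, a substrate adaptor of cullin ligases, fell 5.15-fold. NXPE3, a neurexophilin-like gene, fell 5.72-fold from a tight A549 range of 9.76–10.03. IFITM2, which blocks virus entry at endosomes, fell 5.76-fold to 6.73–6.99, and CA2, carbonic anhydrase 2, 4.69-fold to 6.95–7.41.

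**Figure D1:**
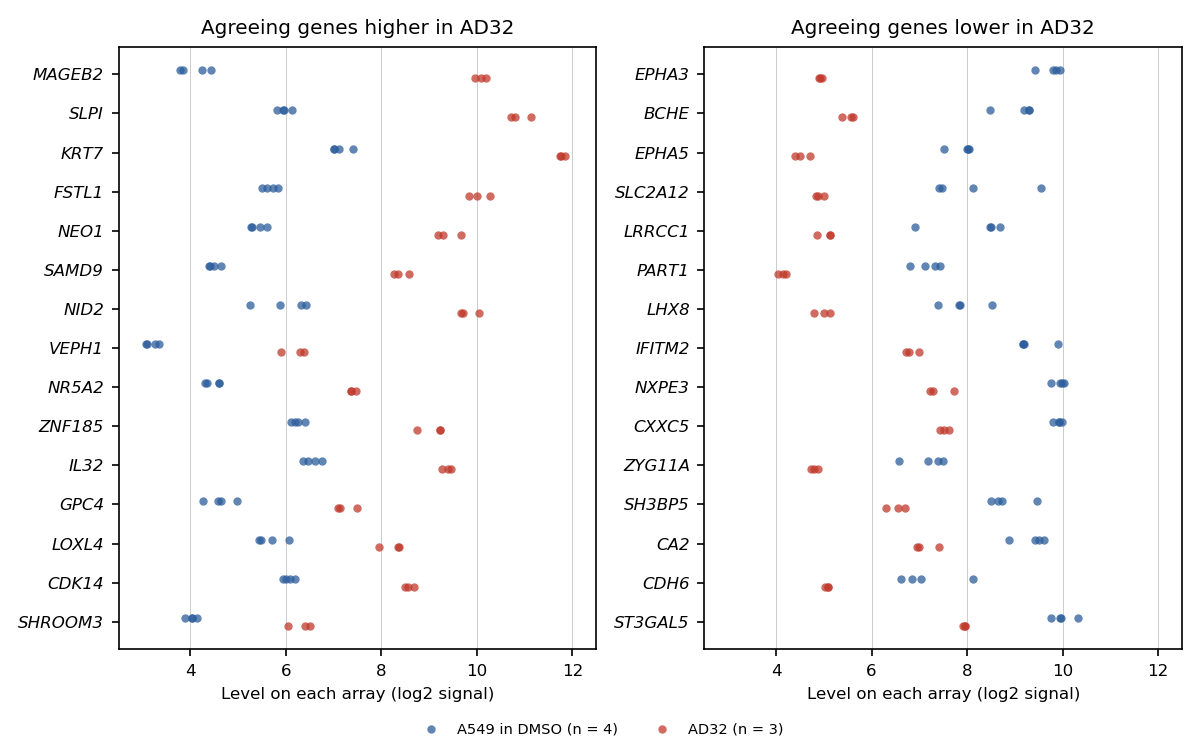
Levels of the 15 agreeing genes with the largest rise and the 15 with the largest fall in AD32, as log2 signal (x axis), with 1 point per array: 3 AD32 arrays in red and 4 A549 DMSO arrays in blue. The AD32 points of a gene lie within 0.5 of each other and never overlap the blue points, since that chose the genes. In the bottom row on the right, ST3GAL5 shows 3 red points that nearly coincide.

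Called integrin and laminin genes were higher in AD32 and included ITGB4 and LAMB3, both parts of the hemidesmosome anchor. ITGB4, the integrin beta 4 chain that anchors keratin filaments to laminin, stood at 10.88, 9.77 and 9.87 in AD32 and 8.34, 6.82, 6.32 and 6.34 in A549 in DMSO. All AD32 arrays were above all A549 arrays, and the highest of the latter was replicate 1. The mean rose 9.3-fold, a log2 difference of 3.22 with an SE of 0.49 (adjusted p = 0.00634). LAMB3, the beta 3 chain of laminin-332 and the ligand side of the same anchor, read 10.24, 10.24 and 9.53 against 6.71, 6.88, 6.36 and 6.42 and rose 10.6-fold. ITGB8, which activates latent TGF-beta, rose 2.93-fold to 5.35–6.20. ITGA6, the partner of integrin beta 4, was high in both lines and rose 1.45-fold, a call that ended without A549 DMSO replicate 2, 3 or 4 or AD32 replicate 1 or 2 (adjusted p = 0.0885 to 0.146). LAMA5, the laminin alpha 5 chain, was the other laminin called, at 10.21, 9.71 and 9.72 against 9.34, 8.95, 8.59 and 8.70, with a call that ended without A549 DMSO replicate 2, 3 or 4 or AD32 replicate 1 or 2 (adjusted p = 0.0645 to 0.109). No called member of either family was lower (after median centring 1 of 4 integrin calls was lower): 4 of 25 integrin genes were called (16%) and 2 of 10 laminin genes (20%), against 5.72% of all genes. The integrin count was 2 with A549 DMSO replicate 2, 3 or 4 or AD32 replicate 1 or 2 left out, and that of laminins 1 with A549 DMSO replicate 2, 3 or 4 or AD32 replicate 1 or 2 left out.

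Desmosomal and tight junction genes were called as well. DSC3 (desmocollin 3), a desmosomal cadherin typical of stratified epithelium, rose 8.23-fold, from 3.63–4.12 to 6.66, 7.34 and 6.49. MARVELD2 (tricellulin), which seals the corners where 3 cells meet, rose 3.21-fold to 8.63, 9.56 and 8.64. Both genes were clear of every A549 array, like nearly all called genes. CGN (cingulin), a scaffold that ties tight junctions to actomyosin, was higher at 7.09, 7.44 and 8.30 against 6.10–6.44 and was not called without A549 DMSO replicate 3 or 4 (adjusted p = 0.0519 to 0.0528). CLDN1, a claudin of the strand itself, read 11.43, 11.71 and 10.73 against 9.84, 9.93, 10.50 and 10.46, and its call ended without A549 DMSO replicate 2, 3 or 4 or AD32 replicate 1 or 2 (adjusted p = 0.0628 to 0.147). The polarity scaffold gene PARD3 lay the other way at 8.80, 8.67 and 8.96 against 9.22, 9.57, 9.76 and 9.71, with a call that ended without A549 DMSO replicate 2, 3 or 4 or AD32 replicate 1 or 2 (adjusted p = 0.0684 to 0.112). Of 30 claudin and tight junction genes 5 were called (16.7%), 4 higher and 1 lower, with a list median of 0.09 beside 0.01 for all genes. The count was 1 with A549 DMSO replicate 3 or 4 left out, 2 with A549 DMSO replicate 2 or AD32 replicate 1 or 2 left out and 9 with AD32 replicate 3 left out.

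Cadherins moved in both directions. CDH6, a kidney and embryonic cadherin, fell from 8.13, 6.61, 7.04 and 6.85 to 5.02, 5.09 and 5.08 (4.26-fold, adjusted p = 0.00634), and CDH17, the liver-intestine cadherin, fell 3.26-fold from 10.06–10.69 to 8.28–8.69. The neural protocadherin gene PCDH9 fell 6.54-fold, with AD32 replicate 3 nearest to A549 at 4.63, 4.51 and 5.82. PCDHB5 rose to 6.42, 6.57 and 8.49 from 4.13–4.47, 7.44-fold with all arrays and 4.69-fold without AD32 replicate 3. PCDHA12 rose 1.91-fold, and the clustered protocadherins share sequence or exons with near-identical copies, so their signals may be mixed. In all, 10 of 77 cadherin genes were called (13.0%), 7 higher and 3 lower, with a median of 0.13. The count was 17 without A549 DMSO replicate 1 and 14 without AD32 replicate 3. It was 8 with A549 DMSO replicate 2, 3 or 4 or AD32 replicate 1 left out and 7 with AD32 replicate 2 left out. On the epithelial side, CDH1 (E-cadherin) exceeded its A549 level by 1.11 log2 units, with a call that ended without A549 DMSO replicate 2, 3 or 4 or AD32 replicate 1 or 2 (adjusted p = 0.0773 to 0.141). Treated A549 read 10.01 and 9.67 for CDH1, near the AD32 arrays at 9.89, 10.40 and 9.81. CDH6 (7.89 and 8.09) and CDH17 (11.46 and 11.28) stayed high in treated A549, unlike in AD32.

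NF-kappaB target genes were called higher 11 times out of 33, which is 33.3% against 5.72% of all genes, and 0 were called lower. CXCL1, a chemokine for neutrophils, read 10.61, 9.83 and 9.03 in AD32 and 6.81, 6.33, 6.68 and 6.51 in A549 in DMSO, a 9.47-fold rise (log2 difference 3.24, SE 0.33, adjusted p = 0.000829). CXCL2, a close relative, read 7.90, 8.78 and 7.47 against 5.60, 5.76, 5.64 and 5.69. The groups did not overlap for either, as at nearly all called genes. The 2 genes sit near each other on chromosome 4 with almost the same kappaB stretch, as printed above. IL32, a cytokine-like protein induced by TNF, rose 7.09-fold and was even, at 9.46, 9.27 and 9.39 against 6.36, 6.76, 6.46 and 6.61. TNFAIP3 (A20), a ubiquitin-editing enzyme that switches NF-kappaB signalling off again, read 7.38, 7.70 and 7.56 against 5.43, 5.79, 5.43 and 5.46 (4.06-fold, adjusted p = 0.000138). The last pair belongs to the agreeing genes.

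The inhibitor genes NFKBIA and NFKBIZ and the chemokine CXCL8 carry the kappaB letters too and were named beyond the rule for named genes, after their values were seen. NFKBIA, which encodes the inhibitor IkappaB alpha, read 10.41, 10.72 and 10.69 against 9.27, 9.83, 9.48 and 9.63 (2.08-fold), and its call ended without A549 DMSO replicate 3 or 4 or AD32 replicate 2 (adjusted p = 0.0545 to 0.0797). CXCL8 (interleukin 8) read 8.26, 7.72 and 7.02 against 6.01, 5.46, 5.62 and 5.78, with a call that ended without AD32 replicate 2 (adjusted p = 0.0543). NFKBIZ, an atypical nuclear member of the inhibitor family, read 7.56, 7.37 and 6.13 against 5.95, 5.58, 4.87 and 4.90, with a call that ended without A549 DMSO replicate 2, 3 or 4 or AD32 replicate 1 or 2 (adjusted p = 0.0622 to 0.134). For all 3 the AD32 arrays lay above the A549 DMSO arrays, narrowly so for NFKBIZ in AD32 replicate 3. Treated A549 read 6.86 and 8.07 for CXCL8, 6.46 and 6.65 for NFKBIZ and 9.82 and 10.55 for NFKBIA. For CXCL1 (7.05 and 7.65) and CXCL2 (5.97 and 7.04) it lay above every DMSO array and below every AD32 array. The endothelial and myeloid gene TNFAIP2 and the dendritic cell marker CD83 were called as well, at 1.93-fold and 1.53-fold, and these calls ended without A549 DMSO replicate 3 or 4 or AD32 replicate 1 (adjusted p = 0.0517 to 0.0583) and without A549 DMSO replicate 2, 3 or 4 or AD32 replicate 2 or 3 (adjusted p = 0.0594 to 0.123).

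C3 and LCN2 depended on single arrays. C3, the central complement component, read 10.88, 11.38 and 11.41 in AD32 and 9.62, 6.48, 6.57 and 6.43 in A549 in DMSO, where replicate 1 alone was high. Treated A549 read 10.04 and 10.97 and the AD32 4E-BP1 array 8.62. Its rise was 15.4-fold with all arrays and 26.5-fold without A549 DMSO replicate 1, and the call ended without AD32 replicate 2 (adjusted p = 0.0618). LCN2 (lipocalin 2), an iron-siderophore trap of inflamed epithelium, read 12.85, 11.95 and 7.25 in AD32 against 6.47, 5.54, 6.36 and 6.33. AD32 replicate 3 was less than 1 log2 unit above the highest A549 array, and the 22.8-fold mean rise was 10.7-fold without AD32 replicate 1, 14.7-fold without AD32 replicate 2 and 74.9-fold without AD32 replicate 3, with a call that ended without A549 DMSO replicate 2, 3 or 4 or AD32 replicate 1 or 2 (adjusted p = 0.111 to 0.185). Over the NF-kappaB list the median difference was 0.42 beside 0.01 for all genes, 23 of 33 members lay higher and 16 had an unadjusted p under 0.05. The number called was 5 with AD32 replicate 2 left out and 6 with A549 DMSO replicate 3 or 4 left out, and 14 without A549 DMSO replicate 1. Of the 10 list windows with the kappaB letters, 5 belonged to genes not called (ICAM1, NFKB1, CXCL3, CXCL5 and CXCL6).

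**Figure D2:**
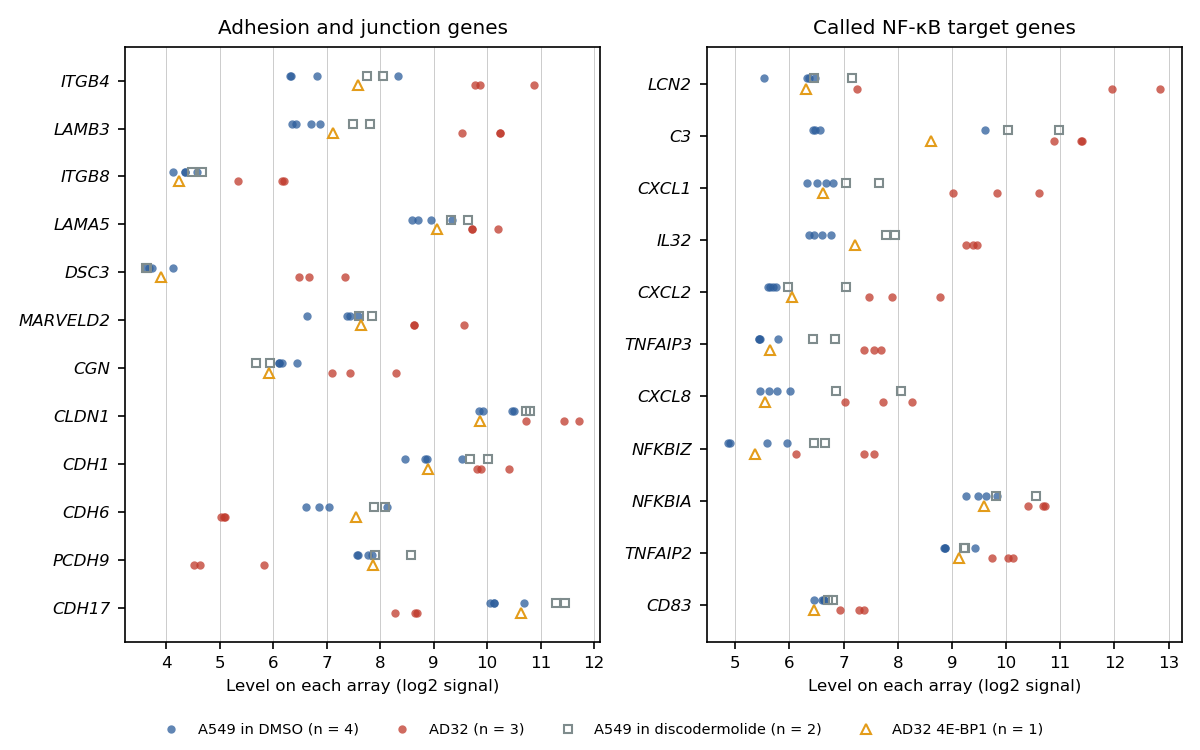
Levels of 12 adhesion and junction genes (left) and of the 11 called NF-kappaB target genes (right), as log2 signal on the x axis, with 1 symbol per array for AD32, A549 in DMSO, A549 in discodermolide and AD32 4E-BP1. All genes shown were called. Those on the left are a selection that leaves out others, such as PARD3, which was lower, and ITGA6, which was higher. AD32 lies to the right of A549 in DMSO for 9 of the 12 genes on the left and for all 11 on the right. Both counts follow from the choice of genes. The AD32 4E-BP1 symbol lies nearer the A549 DMSO mean than the AD32 mean at each gene shown. LCN2 shows the widest AD32 spread, from 7.25 to 12.85.

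The TNF family members and interleukin receptors that were called were all higher. TNFSF9, the ligand of the costimulatory receptor 4-1BB, rose 1.98-fold to 8.28–8.79. TNFRSF9, the receptor itself, read 9.39, 9.35 and 7.97 against 7.38, 6.30, 6.12 and 6.05, with a call that ended without AD32 replicate 1 or 2 (adjusted p = 0.0522 to 0.0543). EDA2R, an ectodysplasin receptor and p53 target, rose 1.76-fold, and here treated A549 was higher than AD32, at 9.07 and 8.77 against 8.10–8.43. TNFRSF11A (RANK) was higher at 7.33, 7.33 and 8.29, with a call that ended without A549 DMSO replicate 2, 3 or 4 (adjusted p = 0.0606 to 0.0957). In all, 4 of 39 TNF ligands and receptors were called (10.3%), with a median of 0.13. IL1R2, a decoy receptor that binds interleukin 1 without signalling, rose 2.55-fold, from 5.38–5.93 to 6.98, 6.97 and 7.34. IL18R1 was uneven at 6.03, 5.70 and 4.49 against 3.64–4.33 and was called in only 1 of the leave-one-out fits, ending without A549 DMSO replicate 1, 2, 3 or 4 or AD32 replicate 1 or 2 (adjusted p = 0.0523 to 0.18). Among 72 interleukin and receptor genes 4 were called (5.56%), which is close to the share of all genes. The count was 8 without AD32 replicate 3 and 3 in each of the other leave-one-out fits.

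Antigen presentation genes split. TAP1, which carries peptides into the endoplasmic reticulum for class I molecules, rose 2.15-fold from 7.84–8.28 to 8.86–9.52, and its partner TAP2 fell 1.99-fold from 7.25–7.69 to 6.34–6.60. The 2 subunits of the transporter thus differed in opposite directions on every AD32 array. ERAP1, the aminopeptidase that trims those peptides, fell 2.36-fold to 7.04–7.71. HLA-DMB, of the class II pathway, was uneven at 8.30, 9.15 and 6.82 against 5.64–6.68, 4.27-fold with all arrays and 6.63-fold without AD32 replicate 3, with a call that ended without A549 DMSO replicate 2, 3 or 4 or AD32 replicate 1 or 2 (adjusted p = 0.0916 to 0.132). Together 4 of 17 measured genes were called (23.5%), 2 each way.

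Receptor tyrosine kinase genes were called in 10 of 46 cases (21.7%), 5 higher and 5 lower, with a median of 0.04. MST1R, the receptor of macrophage-stimulating protein, rose from 6.44, 6.61, 6.13 and 6.31 to 8.90, 7.75 and 8.27 (3.81-fold, adjusted p = 0.0036). EGFR, the epidermal growth factor receptor, rose 3.16-fold, at 10.41, 10.09 and 9.55 against 8.01, 8.83, 8.40 and 8.19. The lowest AD32 array for EGFR, replicate 3, was still above the highest A549 array. EPHA2, an ephrin receptor of epithelia, rose 1.83-fold to 10.06–10.29, so that it went opposite to EPHA3 and EPHA5, and ROR1, a Wnt5a receptor, rose 2.14-fold. NTRK3, the neurotrophin 3 receptor, fell 9.66-fold, from 8.65, 8.38, 8.19 and 8.10 to 4.74, 5.17 and 5.27 (adjusted p = 2.35e-05). FGFR4, a fibroblast growth factor receptor, read 6.61, 6.50 and 7.97 against 8.59, 8.58, 8.44 and 8.48, with replicate 3 closest to A549 and a call that ended without A549 DMSO replicate 2, 3 or 4 or AD32 replicate 1 or 2 (adjusted p = 0.0667 to 0.107).

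Feedback genes of the ERK kinases, which sit downstream of such receptors, were called higher in 4 of 22 cases (18.2%), with a list median of 0.51. SPRED1, an inhibitor of RAS and RAF signalling, was even at 9.94, 9.96 and 9.85 against 9.15, 8.71, 8.89 and 8.86 and rose 2.02-fold. DUSP6, the phosphatase that removes phosphate from ERK, read 10.00, 9.80 and 8.78 against 8.13, 6.86, 7.53 and 7.60, and its call ended without AD32 replicate 1 or 2 (adjusted p = 0.0524 to 0.0561). IER3 read 10.70, 10.64 and 10.56 against 10.32, 9.68, 9.47 and 9.59 and was not called without A549 DMSO replicate 2, 3 or 4 or AD32 replicate 1 or 2 (adjusted p = 0.0919 to 0.127). Treated A549 read 9.31 and 9.57 for DUSP6, within the AD32 range. For IER3 it read 9.84 and 10.12, below every AD32 array. The number called was 2 with AD32 replicate 1 or 2 left out, 8 with A549 DMSO replicate 1 left out and 10 with AD32 replicate 3 left out. Fibroblast growth factor genes had 4 of 33 called (12.1%), 2 each way, among them FGFBP1, which frees growth factor from the matrix and rose 3.64-fold to 6.98, 6.41 and 7.25. KLB, the co-receptor of FGF19 and FGF21, was lower by 0.92 on the log2 scale, with a call that ended without AD32 replicate 1 (adjusted p = 0.0511). The count of that family was 1 with AD32 replicate 1 left out and 2 with A549 DMSO replicate 2, 3 or 4 or AD32 replicate 2 left out.

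Developmental signalling lists stood nearer the background. In the TGF-beta and BMP list 5 of 74 genes were called (6.76%), all higher. ACVR1, a type I BMP receptor, rose 2.06-fold to 7.12, 7.76 and 7.44, and FSTL1 was described above. NOG (noggin), which binds BMP, was higher at 7.33, 6.99 and 6.47 against 5.76–6.15, with a call that ended without A549 DMSO replicate 2, 3 or 4 or AD32 replicate 1 or 2 (adjusted p = 0.0681 to 0.11). LTBP2, which holds latent TGF-beta in the matrix, and ID4, a BMP-induced inhibitor of transcription factors, were called too, and these calls ended without A549 DMSO replicate 2, 3 or 4 or AD32 replicate 1 (adjusted p = 0.0523 to 0.0715) and without A549 DMSO replicate 2, 3 or 4 or AD32 replicate 1 or 2 (adjusted p = 0.0901 to 0.133). The list count was 2 with A549 DMSO replicate 2, 3 or 4 or AD32 replicate 1 left out, 10 with AD32 replicate 3 left out and 11 with A549 DMSO replicate 1 left out.

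Wnt genes gave 3 calls of 62 (4.84%). DKK1, a secreted inhibitor of the Wnt co-receptors, fell 3.17-fold, from 11.83, 11.00, 11.90 and 11.95 to 9.99, 9.66 and 10.37, and WNT7B, an epithelial ligand of the lung, rose 2.31-fold to 8.75, 8.20 and 8.91. Neither gene overlapped between the groups, which holds for nearly all called genes. The count was 5 with AD32 replicate 3 left out and 9 with A549 DMSO replicate 1 left out. In the Notch list 4 of 35 were called (11.4%), 2 each way. JAG2, a Notch ligand, rose 2.25-fold and agreed well at 7.81, 7.65 and 7.77. NOTCH1 exceeded its A549 level by 0.76 log2 units, with a call that ended without A549 DMSO replicate 3 or 4 or AD32 replicate 2 (adjusted p = 0.0634 to 0.087). DLL3, a ligand that acts within the cell, and DTX3L, a ubiquitin ligase, were lower at 5.68–5.85 and 6.43–7.03, with calls that ended without A549 DMSO replicate 2 or 3 or AD32 replicate 1 or 2 (adjusted p = 0.0514 to 0.0697) and without A549 DMSO replicate 2, 3 or 4 or AD32 replicate 1, 2 or 3 (adjusted p = 0.0519 to 0.13). The Notch count was 1 with A549 DMSO replicate 3 or AD32 replicate 2 left out, 2 with A549 DMSO replicate 4 or AD32 replicate 1 left out and 8 with A549 DMSO replicate 1 left out.

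Targets of YAP and TAZ, the effectors of the Hippo pathway, had 4 called genes of 23 (17.4%), all higher, but the count was 0 with AD32 replicate 1 or 2 left out, 1 with A549 DMSO replicate 4 left out and 2 with A549 DMSO replicate 3 left out. ANKRD1, a cardiac ankyrin repeat protein, read 10.64, 10.74 and 10.62 against 9.61, 10.25, 9.71 and 9.60, and its call ended without A549 DMSO replicate 3 or 4 or AD32 replicate 1 or 2 (adjusted p = 0.0634 to 0.0782). MYOF (myoferlin), of membrane repair, read 11.69, 11.75 and 11.30 against 10.20, 10.70, 10.60 and 10.56, with a call that ended without AD32 replicate 1 or 2 (adjusted p = 0.054 to 0.0571). AJUBA and AMOTL2, both regulators within the pathway, were called with all arrays, at 1.76-fold and 2.53-fold, and these calls ended without A549 DMSO replicate 4 or AD32 replicate 1 or 2 (adjusted p = 0.0558 to 0.0571) and without A549 DMSO replicate 3 or 4 or AD32 replicate 1 or 2 (adjusted p = 0.0527 to 0.0797).

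Axon guidance genes were called in 8 of 51 cases (15.7%), 6 higher and 2 lower. Besides NEO1, NTN4 (netrin 4), a basement membrane ligand, rose 2.27-fold to 10.41, 9.87 and 9.59. ROBO1, the SLIT receptor, fell 2.19-fold from 9.69–10.31 to 8.67–8.87, and UNC5D, a netrin receptor, fell 3.9-fold from a tight A549 range of 8.09–8.17. SEMA3B, a secreted semaphorin, was higher on average by 2.10, but A549 DMSO replicate 1 at 8.09 came close to the lowest AD32 array at 8.53, and the call ended without A549 DMSO replicate 2, 3 or 4 or AD32 replicate 1 or 2 (adjusted p = 0.0622 to 0.0957). PLXNA2, a semaphorin receptor, was higher at 7.15, 7.33 and 7.48 against 6.56, 6.19, 5.41 and 5.31, with a call that ended without A549 DMSO replicate 3 or 4 or AD32 replicate 1 or 2 (adjusted p = 0.0599 to 0.0836). The count for the list was 4 with A549 DMSO replicate 3 or 4 or AD32 replicate 1 left out, 5 with AD32 replicate 2 left out and 13 with A549 DMSO replicate 1 left out.

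Solute carriers gave 21 calls of 349 (6.02%), 9 higher and 12 lower, close to the share of all genes, and the count was 11 with AD32 replicate 2 left out, 13 with AD32 replicate 1 left out, 39 with AD32 replicate 3 left out and 40 with A549 DMSO replicate 1 left out. SLC2A12 was described above. SLC19A3, a thiamine transporter, fell 3.59-fold from 8.0, 7.08, 7.49 and 7.35 to 5.47, 5.57 and 5.87, and SLC8A1, the sodium-calcium exchanger, fell 2-fold. SLC52A3, a riboflavin transporter, rose 1.91-fold with tight groups (6.55–6.70 against 5.63–5.75), and SLC22A5, which imports carnitine, rose 1.76-fold to 9.11–9.39. Treated A549 was near AD32 for SLC22A5, at 9.01 and 9.29. SLC7A2, a cationic amino acid transporter, fell 4.88-fold, with levels of 9.53, 9.96 and 8.52 against 12.66, 11.18, 11.28 and 11.37.

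Ion channel lists held large single differences. KCNE4, a regulatory subunit of potassium channels, fell 14.8-fold, from 10.45, 7.91, 8.31 and 8.49 to 4.52, 4.99 and 5.19. KCNK1, a leak potassium channel, rose 4.14-fold at 9.30, 8.92 and 8.44 against 6.68, 6.89, 6.78 and 7.01, and KCNQ5 fell 3.16-fold to 4.29–4.62. KCNN4, the calcium-activated channel, was higher at 7.90, 7.46 and 7.66 against 7.11, 6.25, 6.18 and 6.34, with a call that ended without A549 DMSO replicate 2, 3 or 4 or AD32 replicate 1 (adjusted p = 0.0514 to 0.0773). Of 86 potassium channel genes 4 were called (4.65%), and 7 without AD32 replicate 3. The count was 3 with A549 DMSO replicate 2, 3 or 4 or AD32 replicate 1 left out. TRPA1, the irritant-sensing cation channel, fell 13.9-fold from 9.48, 8.42, 8.80 and 8.79 to 4.89, 4.53 and 5.81, and TRPC1 fell 2.18-fold. MCOLN3, a lysosomal calcium channel, rose 2.27-fold to 6.41, 6.38 and 6.93. In the TRP and calcium channel list 6 of 56 were called (10.7%), 3 each way, and 3 with A549 DMSO replicate 4 or AD32 replicate 1 left out.

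The list of orphan, adhesion and other G protein-coupled receptors had 7 of 132 genes called (5.30%), 3 higher and 4 lower. GPRC5A, a retinoid-induced receptor that is abundant in lung epithelium, rose 3.15-fold, at 12.17, 12.06 and 11.52 against 9.67, 10.58, 10.45 and 10.37. F2RL2 (PAR3), a thrombin receptor, fell 4.55-fold from 8.59–9.28 to 6.54, 6.40 and 7.24, and ADGRG6, an adhesion receptor, fell 2.89-fold with agreeing arrays (9.55, 9.51 and 9.72 against 11.27, 11.15, 11.07 and 11.00). LPAR6, a receptor of lysophosphatidic acid, fell 2.61-fold to 3.62–4.19, and the nucleotide receptor gene P2RY6 fell 1.65-fold. The list count was 12 without A549 DMSO replicate 1 and 6 with A549 DMSO replicate 3 or 4 or AD32 replicate 2 left out.

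Golgi glycosyltransferases, the enzymes that build sugar chains on proteins and lipids, had 13 of 115 genes called (11.3%), 8 higher and 5 lower, and 7 of the 13 were agreeing genes. ST3GAL5, the synthase of the ganglioside GM3, fell 4.17-fold, from 10.33, 9.76, 9.97 and 9.95 to 7.95, 7.92 and 7.95 (adjusted p = 8.64e-05). ST8SIA4, which makes polysialic acid, fell 3.76-fold to 5.99–6.41, and GALNT14, which starts mucin-type O-glycans, fell 3.02-fold. B4GALT6, a lactosylceramide synthase whose product ST3GAL5 uses, rose 2.49-fold to 8.41, 8.41 and 8.18. These neighbours in the ganglioside pathway thus lay in opposite directions. B3GALT5, of type 1 chains, rose 1.84-fold, and CSGALNACT1, of chondroitin sulphate, fell 2.31-fold. The list count moved by less than 1.5 times in each leave-one-out fit, from 9 to 17.

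Retinoid genes were called in 4 of 21 cases (19.0%), 2 each way. ALDH1A3 and ALDH1A1 both oxidise retinal to retinoic acid. ALDH1A3 rose 2.55-fold, from 6.89, 6.88, 7.03 and 7.07 to 8.35, 8.09 and 8.52, while ALDH1A1 fell 1.92-fold from 13.33–13.56 to 12.49–12.69. RARB, a retinoic acid receptor, fell 3.31-fold, at 6.10, 6.23 and 5.29 against 7.75, 7.76, 7.48 and 7.40. DHRS9, a retinol dehydrogenase, rose 1.94-fold, at 5.19, 5.05 and 4.69 against 3.88, 4.09, 4.07 and 4.03. Among aldehyde dehydrogenases and aldo-keto reductases 3 of 37 were called (8.11%), 1 higher and 2 lower, and the count was 6 with A549 DMSO replicate 1 left out and 8 with AD32 replicate 3 left out. The third of them, AKR1C1, reduces steroids and aldehydes and was 1.86-fold lower, with a call that ended without A549 DMSO replicate 2, 3 or 4 or AD32 replicate 1 or 2 (adjusted p = 0.0681 to 0.113), and near-identical AKR1C copies may share its signal. Nuclear receptors had 4 of 39 called (10.3%), 2 each way, and 2 with A549 DMSO replicate 3 or 4 or AD32 replicate 2 left out and 7 with A549 DMSO replicate 1 left out. NR1H3, the oxysterol receptor LXR alpha, read 7.17, 6.48 and 6.54 against 8.39, 7.52, 7.62 and 7.71, with a call that ended without A549 DMSO replicate 2, 3 or 4 or AD32 replicate 2 or 3 (adjusted p = 0.0503 to 0.141). NR4A1, an immediate early factor, read 9.65, 9.60 and 8.88 against 8.55, 8.08, 8.20 and 8.29, with a call that ended without A549 DMSO replicate 3 or 4 or AD32 replicate 1 or 2 (adjusted p = 0.0558 to 0.0765).

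Metalloproteases, their inhibitors and the plasminogen system were at the background, with 8 of 140 called (5.71%), 3 higher and 5 lower, and the count was 4 with A549 DMSO replicate 4 or AD32 replicate 1 left out and 5 with A549 DMSO replicate 2 or 3 or AD32 replicate 2 left out. MMP7 (matrilysin), a metalloprotease of glandular epithelium, rose 5.04-fold, at 6.54, 7.12 and 7.48 against 5.07, 4.67, 4.62 and 4.50, and treated A549 read 5.52 and 6.65. TIMP4, a tissue inhibitor of such enzymes, rose 2.11-fold. ADAMTS6 and ADAMTS9, which cleave proteoglycans and fibrillin microfibrils, fell 1.71-fold and 1.7-fold. Lipid mediator genes had 3 of 23 called (13.0%), 1 higher and 2 lower, and the count was 1 with AD32 replicate 1 or 2 left out and 6 with AD32 replicate 3 left out. ALOX5, which starts leukotriene synthesis, rose 2.74-fold, from 5.39–5.89 to 7.27, 7.43 and 6.58. PLA2G4A, the phospholipase that releases arachidonate, fell 2.9-fold, at 8.58, 8.53 and 8.37 against 10.81, 9.91, 9.68 and 9.71, with a call that ended without AD32 replicate 1 or 2 (adjusted p = 0.0582 to 0.0621). PTGR1, which inactivates leukotriene B4 and prostaglandins, fell 1.8-fold, and its call ended without A549 DMSO replicate 2, 3 or 4 or AD32 replicate 1 or 2 (adjusted p = 0.0598 to 0.0977).

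Membrane trafficking and calcium-binding genes changed in single cases. RAB4A, of fast endosome recycling, fell 2.26-fold, from 8.15–8.55 to 6.77, 7.15 and 7.52, and was the member of 60 RAB genes whose call held in every leave-one-out fit. Another 4 were called, for 5 in all (8.33%), and the count was 1 with A549 DMSO replicate 3 or 4 or AD32 replicate 1 left out, 2 with A549 DMSO replicate 2 left out, 3 with AD32 replicate 2 left out and 8 with A549 DMSO replicate 1 or AD32 replicate 3 left out. ANXA4, a calcium-dependent membrane binder, fell 1.85-fold at 10.58, 10.96 and 10.97 against 11.97, 11.68, 11.59 and 11.67, and treated A549 read higher than either, at 12.63 and 12.35. Of 33 S100 and annexin genes 3 were called (9.09%), all lower, whereas 1 of the 4 called after a further quantile normalization was higher, and the count was 1 with A549 DMSO replicate 3 or 4 or AD32 replicate 1 left out, 5 with AD32 replicate 3 left out and 6 with A549 DMSO replicate 1 left out. Receptor-type and dual-specificity phosphatases gave 5 of 56 (8.93%), all higher, with 1 with AD32 replicate 1 or 2 left out, 2 with A549 DMSO replicate 4 left out, 3 with A549 DMSO replicate 3 left out, 8 with A549 DMSO replicate 1 left out and 11 with AD32 replicate 3 left out. PTPRK, which opposes EGFR phosphorylation, rose 1.99-fold to 8.75, 9.25 and 8.63.

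HOX genes, which hold positional identity, were called in 5 of 27 cases (18.5%), all higher, and 24 of 27 lay higher with a median of 0.10. HOXC13 read 8.80, 8.67 and 7.81 against 7.20, 6.77, 7.0 and 7.31, with a call that ended without AD32 replicate 1 or 2 (adjusted p = 0.0581 to 0.0639), and HOXB13 read 6.97, 6.88 and 6.50 against 6.0, 5.68, 5.31 and 5.14, with a call that ended without AD32 replicate 1 or 2 (adjusted p = 0.0527 to 0.0535). In both, AD32 replicate 3 was the lowest AD32 array. HOXC9, HOXB7 and HOXC10 were higher by 0.84, 0.89 and 0.78, and these calls ended without A549 DMSO replicate 2 or 4 or AD32 replicate 1 or 2 (adjusted p = 0.0523 to 0.105), without A549 DMSO replicate 2, 3 or 4 or AD32 replicate 2 or 3 (adjusted p = 0.0627 to 0.157) and without A549 DMSO replicate 2, 3 or 4 or AD32 replicate 1 or 2 (adjusted p = 0.101 to 0.141), in that order. The list count was 0 with AD32 replicate 2 left out and 1 with AD32 replicate 1 left out. It was 2 with A549 DMSO replicate 2 or 4 left out and 3 with A549 DMSO replicate 3 left out. It was 4 with AD32 replicate 3 left out and 7 with A549 DMSO replicate 1 left out. In these 7 fits HOXB13 was 2.18-fold to 2.65-fold higher and HOXC13 2.24-fold to 3.17-fold. HOXC9 was 1.64-fold to 1.96-fold higher, HOXB7 1.67-fold to 2.12-fold and HOXC10 1.51-fold to 1.99-fold. Why the count changed was not tested.

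SOX, FOX, GATA and KLF transcription factors were called higher in 8 of 81 cases (9.88%), with 0 called lower. KLF4, a factor of epithelial differentiation, rose 3.25-fold, at 9.32, 9.39 and 8.68 against 7.69, 7.33, 7.37 and 7.33 (adjusted p = 0.0013). FOXA1, a pioneer factor of endoderm and lung, rose 1.99-fold at 8.11, 7.87 and 8.03 against 6.92, 7.29, 6.80 and 7.03, whereas its relative FOXA2 read 8.37, 8.50 and 8.60 against 8.47, 8.94, 8.35 and 8.37 and was not called (adjusted p = 0.943). FOXD1 and FOXN3 were called at 2.31-fold and 2.17-fold, with calls that ended without A549 DMSO replicate 4 or AD32 replicate 1 or 2 (adjusted p = 0.0501 to 0.0608) and without A549 DMSO replicate 3 or 4 (adjusted p = 0.0519 to 0.0526). KLF5 and KLF3 were called at 1.87-fold and 1.8-fold, and these calls ended without A549 DMSO replicate 2, 3 or 4 or AD32 replicate 1 or 2 (adjusted p = 0.102 to 0.179) and without A549 DMSO replicate 2, 3 or 4 or AD32 replicate 1 or 2 (adjusted p = 0.109 to 0.172). The count for the list was 2 with A549 DMSO replicate 4 left out, 3 with A549 DMSO replicate 3 or AD32 replicate 1 left out and 4 with AD32 replicate 2 left out.

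Zinc finger genes of the ZNF series were called 32 times in 477 (6.71%), 18 higher and 14 lower, again near the share of all genes. ZNF160, ZNF570 and ZNF611, all on chromosome 19, fell 3.28-fold, 2.64-fold and 1.99-fold. ZNF704 rose 3.48-fold, against the direction of most of its chromosome, number 8, and ZNF106 rose 3.24-fold. ZNF genes share repeated finger motifs, so probe sets may respond to more than 1 of them. The count was 12 with A549 DMSO replicate 3 left out, 13 with A549 DMSO replicate 4 left out, 15 with AD32 replicate 2 left out and 20 with A549 DMSO replicate 2 or AD32 replicate 1 left out. Of 35 DNA methylation and chromatin genes 2 were called (5.71%). MBD1, which binds methylated DNA, rose 2.62-fold to 9.99, 10.11 and 9.39, and HDAC9, a histone deacetylase, was higher at 5.50, 6.29 and 5.15 against 4.23–4.59, with a call that ended without A549 DMSO replicate 3 or AD32 replicate 1 (adjusted p = 0.0511 to 0.0587). The count was 1 with A549 DMSO replicate 3 or AD32 replicate 1 left out, 4 with AD32 replicate 3 left out and 6 with A549 DMSO replicate 1 left out.

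Enzymes that cut or modify microtubules were lower where they were called. KATNAL1, a catalytic subunit of the katanin severing enzymes, fell 2.41-fold, at 5.98, 6.89 and 6.59 against 7.56, 7.85, 7.77 and 7.85. VASH2, a vasohibin that clips the terminal tyrosine from alpha-tubulin, fell 1.68-fold at 6.35, 6.10 and 6.47 against 6.98, 7.14, 7.08 and 7.03, and the treated A549 arrays read 6.29 and 6.24, like AD32. Another severing gene, KATNAL2, was lower at 5.50, 4.99 and 5.38 against 6.14–6.34, with a call that ended without A549 DMSO replicate 3 or AD32 replicate 2 (adjusted p = 0.0582 to 0.0621), and SPAST (spastin) at 7.97, 8.41 and 7.99 against 8.78–9.32, with a call that ended without A549 DMSO replicate 3 or 4 or AD32 replicate 1 (adjusted p = 0.0536 to 0.0643). These are 4 of 30 genes (13.3%), and 2 without A549 DMSO replicate 3. The list median was -0.06, and 12 of the 30 members lay higher.

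Several lists had no called gene in limma with all arrays. Of 84 kinesin and dynein motor genes 0 were called, 16 had an unadjusted p under 0.05, and the count was 4 with A549 DMSO replicate 1 left out and 11 with AD32 replicate 3 left out, and 33 without both. For 30 G2/M and mitosis genes, all lower in the mean with a median of -2.17, the count of 0 became 7 with A549 DMSO replicate 1 left out and 17 with AD32 replicate 3 left out, and 30 without both, with 8 at an unadjusted p under 0.05. MKI67, the Ki-67 proliferation marker, shows the arrays behind this, at 5.51, 5.87 and 9.93 in AD32 and 6.42, 10.63, 9.88 and 9.90 in A549 in DMSO. Cytochrome P450 genes (0 of 48), glucuronosyl, sulfo and glutathione transferases (0 of 37) and mucins with trefoil factors (0 of 41) had 4, 5 and 2 genes at an unadjusted p under 0.05, at most 2, 1 and 1 called in a leave-one-out fit, and 6, 4 and 3 called without both arrays. Autophagy genes had 1 of 31 called (3.23%), ATG14, which recruits the lipid kinase that starts autophagosomes, at 9.47, 9.24 and 8.62 against 8.01–8.29, and that call ended without A549 DMSO replicate 2, 3 or 4 or AD32 replicate 1 or 2 (adjusted p = 0.0571 to 0.0873). The autophagy count was 0 with A549 DMSO replicate 2, 3 or 4 or AD32 replicate 1 or 2 left out, 4 with A549 DMSO replicate 1 left out and 6 with AD32 replicate 3 left out, and 16 without both.

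**Figure D3:**
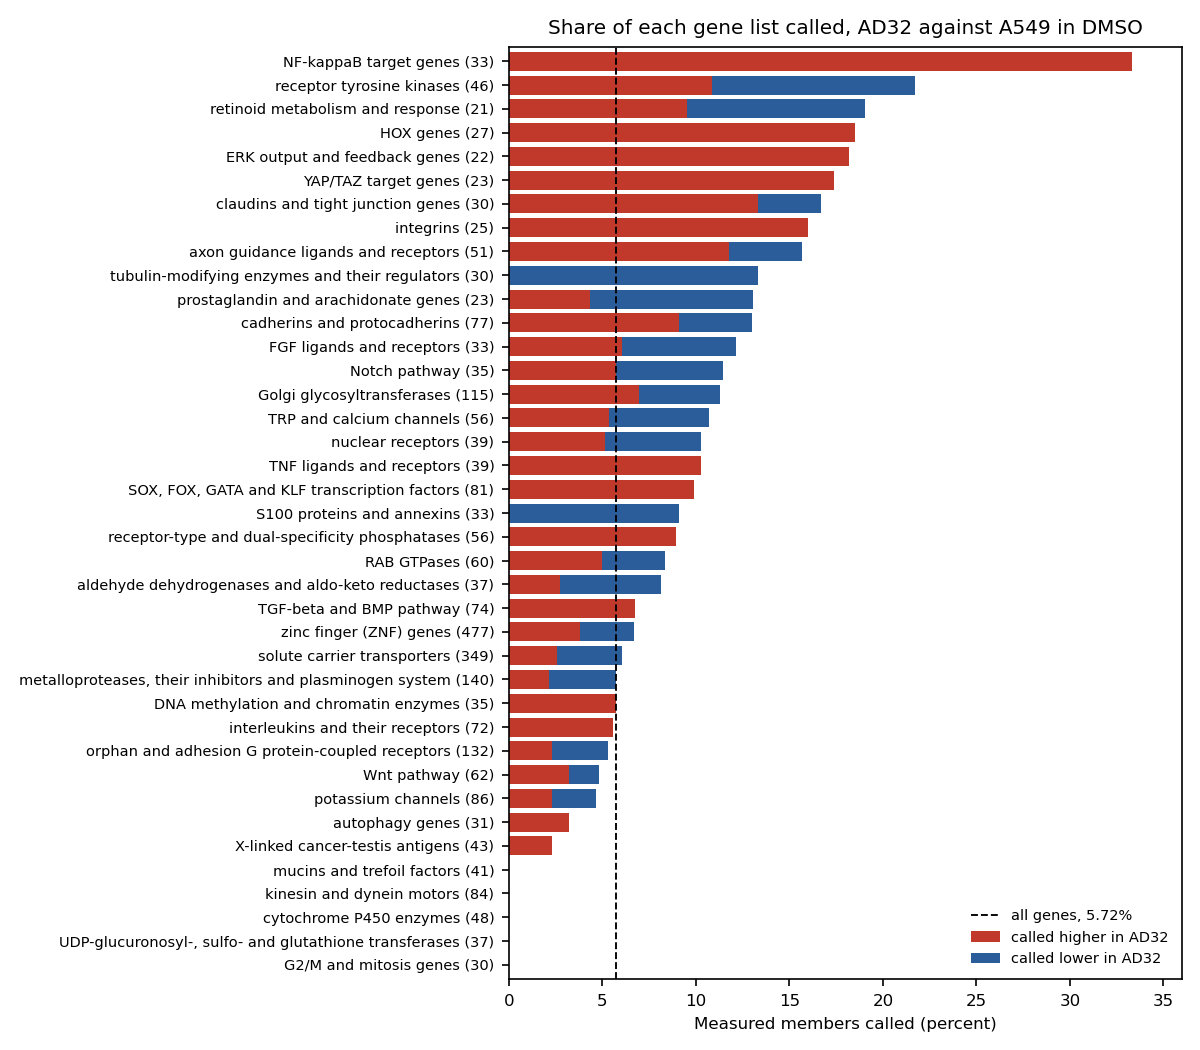
Share of measured members called in AD32 against A549 in DMSO for the 39 gene lists with at least 20 measured members (number in brackets), split into higher (red) and lower (blue), in percent on the x axis. The dashed line is the share of all genes, 5.72%. NF-kappaB targets reach 33.3%, all higher, and 5 lists have no called gene.

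Called genes were not equally even in AD32. Over the 1045 called genes the median range of the 3 AD32 arrays was 0.55, and 19 genes had a range over 2. AD32 replicate 3 was the AD32 array nearest to the A549 DMSO mean at 582 of the 1045, replicate 1 at 247 and replicate 2 at 216. The 6 widest ranges belonged to LCN2, TXNIP, GCNT4, SCEL, BCAT1 and CEACAM5. SCEL (sciellin), a precursor of the cornified envelope, read 9.95, 9.37 and 7.25 against 4.71, 4.52, 5.09 and 5.14, 15.9-fold with all arrays and 27.7-fold without AD32 replicate 3. GCNT4, which branches O-glycans, read 7.02, 8.44 and 4.61 against 3.38–3.79, 8.55-fold with all arrays and 4.66-fold without AD32 replicate 2 and 17.6-fold without AD32 replicate 3, with a call that ended without A549 DMSO replicate 2, 3 or 4 or AD32 replicate 1 or 2 (adjusted p = 0.0858 to 0.131).

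BCAT1, which starts the breakdown of branched-chain amino acids, was lower, unlike the other 5, and here replicate 3 was the most distant from A549. It read 8.12, 7.60 and 5.53 against 9.66, 9.33, 9.88 and 9.79, a 5.99-fold fall with all arrays and 3.5-fold without AD32 replicate 3, with a call that ended without A549 DMSO replicate 3 or 4 (adjusted p = 0.0662 to 0.0669). CEACAM5, the carcinoembryonic antigen, read 7.95, 6.83 and 5.41 in AD32 against 4.35–4.58 in A549. Its mean difference was 4.69-fold with all arrays and 3.07-fold without AD32 replicate 1 and 7.41-fold without AD32 replicate 3, and the call ended without A549 DMSO replicate 2, 3 or 4 or AD32 replicate 1 or 2 (adjusted p = 0.052 to 0.105). TXNIP, an inhibitor of thioredoxin that glucose induces, read 10.88, 11.39 and 7.14 against 5.61, 5.0, 4.92 and 4.90, 26-fold with all arrays and 15-fold without AD32 replicate 2 and 65.3-fold without AD32 replicate 3, and its call ended without AD32 replicate 1 or 2 (adjusted p = 0.0553 to 0.0637).

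**Figure D4:**
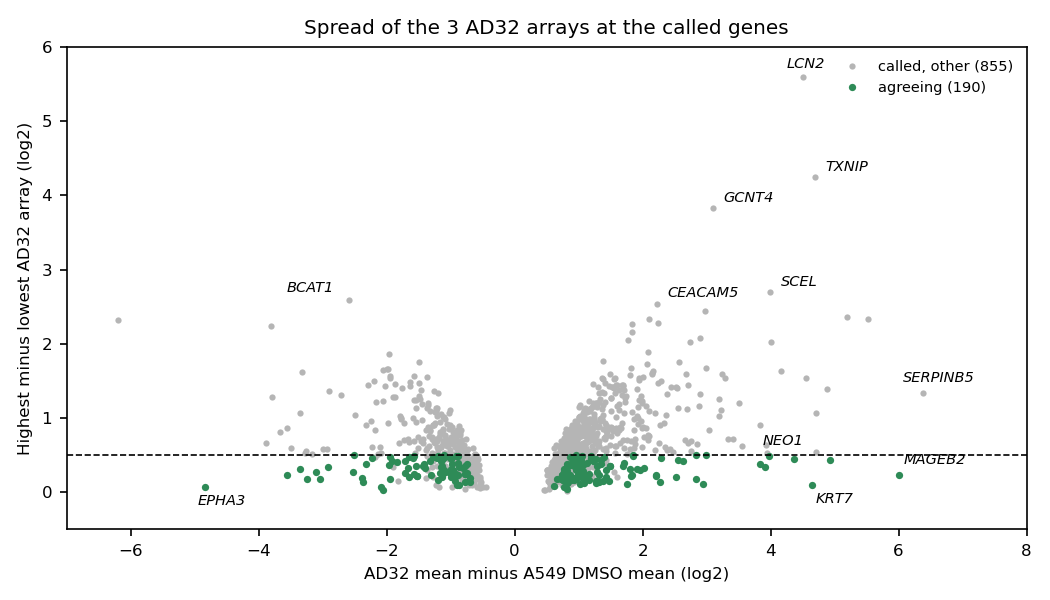
Difference of the AD32 and A549 DMSO means (x axis, log2) against the range of the 3 AD32 arrays (y axis, log2) for the 1045 called genes, with the 190 agreeing genes in green and the other 855 in grey. The dashed line marks the range of 0.5 used to choose agreeing genes. LCN2 has the widest range, 5.60, while MAGEB2, KRT7 and EPHA3 combine large differences with narrow ranges.

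Calls were spread unevenly over the chromosomes, and the pattern ran along much of the chromosomes concerned. On chromosome 8, 62 of 634 tested genes were called lower (9.78%) and 9 higher (1.42%), and on chromosome 10, 62 of 678 were lower (9.14%) and 9 higher (1.33%). The shares over all genes were 2.19% lower and 3.52% higher. On chromosome 18, 11.1% of 262 genes were called higher, on 15 8.74% of 572, on 14 8.28% of 580, on 7 7.62% of 827 and on 12 7.10% of 972. These 5 chromosomes had 1.53%, 0.699%, 0.690%, 1.09% and 0.720% called lower. Chromosomes 12, 14, 15 and 18 had no agreeing gene among their 7, 4, 4 and 4 lower calls. Over all genes 81 of the 401 lower calls were agreeing, so counts this small say little for any 1 chromosome. The called counts moved with the arrays in the fit. Chromosome 8 had 154, 39, 24 and 22 lower genes without A549 DMSO replicates 1, 2, 3 and 4, and 22, 28 and 76 without AD32 replicates 1, 2 and 3. Chromosome 10 had 157, 39, 26 and 24, and 24, 29 and 84, in the same order. Higher calls in these 7 fits numbered 14 to 40 on chromosome 18, 26 to 80 on 15, 16 to 84 on 14, 28 to 114 on 7 and 32 to 110 on 12.

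Levels of expressed genes, those above the median mean level, do not use the calls but come from the same arrays. They set chromosomes 8, 10, 14, 15 and 18 apart. Chromosomes 7 and 12, with a median difference of 0.19 each, shifted about as much as chromosome 2, at -0.18. On chromosome 8 the median of 334 expressed genes lay at -0.52, -0.42 and -0.39 on AD32 replicates 1, 2 and 3 relative to the A549 DMSO mean, and 80.5% of the genes were lower. On chromosome 10 the medians of 368 genes were -0.50, -0.35 and -0.39, with 83.4% lower. Chromosome 14 stood at 0.32, 0.38 and 0.32, chromosome 15 at 0.26, 0.29 and 0.55, and chromosome 18 at 0.28, 0.44 and 0.41. For the 9139 expressed genes in all, the 3 arrays had medians of -0.05, -0.01 and 0.04. AD32 replicate 3, which differed from the other AD32 arrays in mitotic genes, thus had the same chromosomes low and high.

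The A549 DMSO arrays, each against the other 3, did not show these shifts. Replicates 2, 3 and 4 lay between 0.05 and 0.17 on chromosomes 8, 10, 14, 15 and 18, and replicate 1 lay lower on nearly all chromosomes, at -0.25 on 8, -0.28 on 10 and -0.45 on 18, against -0.20 over all expressed genes. Treated A549 had medians of 0.04 and 0.03 on chromosome 8 and 0.03 and 0.10 on 10. The array labelled AD32 4E-BP1 read 0.04 on chromosome 10, 0.07 on 14, 0.07 on 15 and 0.07 on 18, all within 0.02 of its median over all genes (0.05), and -0.14 on chromosome 8. Over the settings tried, including both arrays left out, the AD32 median stayed between -0.56 and -0.40 on chromosome 8, between -0.49 and -0.39 on 10 and between 0.22 and 0.42 on 15.

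Within each of these chromosomes, expressed genes were split into 4 equal parts in the order of the GRCh38.p14 assembly. On chromosome 10 the 4 parts of 92 genes each had medians of -0.43, -0.43, -0.38 and -0.45, nearly level from end to end. On chromosome 8 they were -0.47, -0.44, -0.65 and -0.17, lowest in the third part and least shifted in the last. Chromosome 14 gave 0.21, 0.31, 0.45 and 0.36, and chromosome 15 gave 0.41, 0.42, 0.30 and 0.27. On chromosome 7 the values declined from 0.34 in the first part to 0.22, 0.17 and 0.02. Chromosome 2, at -0.18 as a whole, had -0.43 and -0.35 in its first 2 parts, where 30 genes were called lower and 2 higher. Of the genes named above, TRPA1, SGCZ, CA2, LRRCC1, UNC5D, CDH17, SLC7A2 and CSGALNACT1 lie on chromosome 8, and all 8 fell, whereas ZNF704 rose. The named called genes of chromosome 10 split. LOXL4, ALOX5, MYOF and ANKRD1 were higher in AD32, and DKK1, PARD3 and AKR1C1 were lower. FSTL1 and IL32, among the largest rises, lie on chromosomes 3 and 16, which had no such shift in median level, and MAGEB2 on X. Other large rises lie on chromosomes that were shifted upward. SERPINB5 and SERPINB7 are on 18, NEO1 on 15, NID2 on 14, and KRT7, TSPAN8 and EMP1 on 12.

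**Figure D5:**
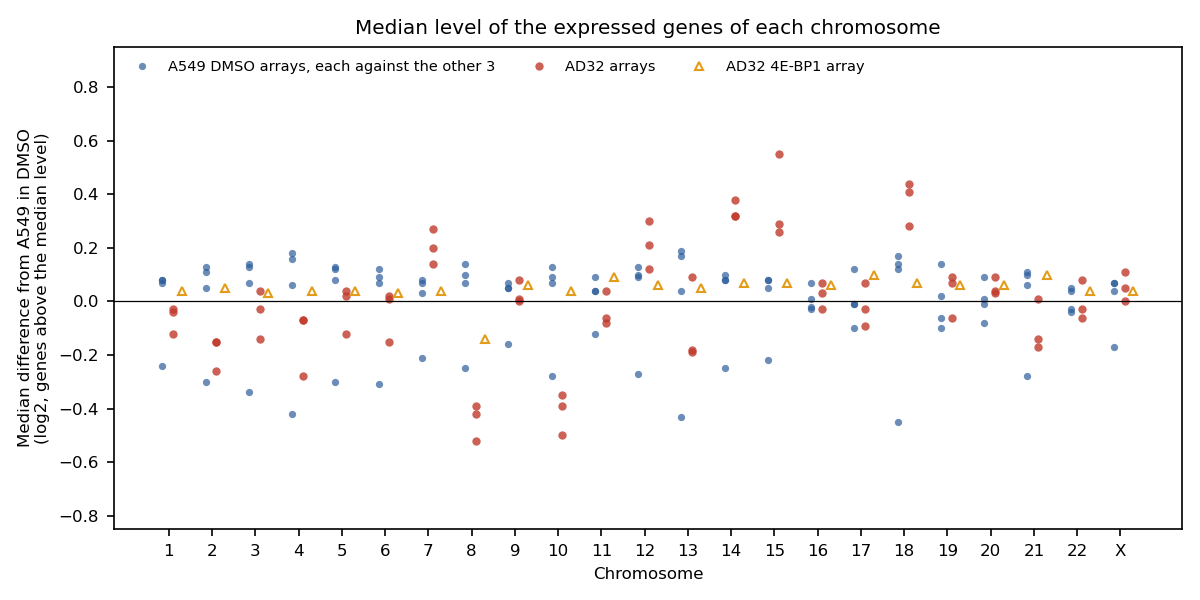
Median difference in level from A549 in DMSO (y axis, log2) of the expressed genes of each chromosome (x axis), with 1 symbol per array: AD32 in red, the A549 DMSO arrays each against the other 3 in blue, AD32 4E-BP1 as triangles. All 3 AD32 arrays lie at or below -0.35 on chromosomes 8 and 10 and at or above 0.26 on 14, 15 and 18. The blue point below the rest on most chromosomes is replicate 1.

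At the agreeing genes the levels of the other 3 arrays can be read side by side, with the reservation that these genes were chosen for a difference between the 2 groups that serve as the yardstick. The array labelled AD32 4E-BP1 was nearer the A549 DMSO mean than the AD32 mean at 181 of the 190 genes and at all 13 switched genes. The 2 treated A549 arrays were nearer the A549 DMSO mean at 157 and 155 of the 190. Those nearer AD32 were mostly genes that rose, 28 and 29 of the 109 agreeing higher genes, against 5 and 6 of the 81 agreeing lower genes. Named agreeing genes of that kind included TIMP4, at 7.87 and 8.05 in treated A549 against 7.75–7.95 in AD32 and 6.52–6.96 in A549 in DMSO, SLC22A5, B3GALT5 and EDA2R. For ZNF185 the array labelled AD32 4E-BP1, at 7.80, was nearer AD32 as well.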

How the data were processed

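RNA of 10 samples was hybridised to Affymetrix gene arrays, 1 array per sample, and 7 arrays enter the comparison. Each probe set has a deposited log2 signal. The submitters' processing notes name Affymetrix Expression Console as the authors' software. Which version and which options were used is not given in the sources used here. Depth does not apply to arrays, and the precision is limited by their number.

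Probe sets were named through the platform annotation: of 24308, 19262 had 1 gene, 1720 several and 3326 none. A gene with several single-gene probe sets (740 of 18279) was read from the brightest, by its mean on the 10 arrays. limma 3.58.1 in R 4.3.3 was fitted to all 10 arrays as 4 groups (6 residual degrees of freedom, to which the lone AD32 4E-BP1 array adds nothing), as a two-sided test, and p-values were adjusted by Benjamini and Hochberg's method across the 18279 genes, with a threshold of 0.05. No values were missing and no low filter was applied. The scripts were tested on simulated data. A549 DMSO replicates 3 and 4 were counted as 2 arrays, with their mean as an alternative. Folds are 2 to the power of the difference of mean log2 values.

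Named genes were the 15 agreeing genes per direction with the largest difference, up to 6 called members of each of 46 gene lists, the 6 called genes with the widest AD32 range, up to 8 switched genes per direction and a few markers. The members and the lists were chosen with earlier results of these data known. Alternatives changed the scaling, the low filter, the variance prior, array weights, the arrays fitted, the probe set rule, a replicate block and a minimum fold of 1.5. Promoter sequences were taken from RefSeq (GRCh38.p14). C3, IL31RA and SGCZ had no entry. The result of 1 further list is not reported here.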

Additional observations from a re-analysis of the deposited data

Results flagged for a closer look

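In 29 of the 206 named genes (14.1%) 1 A549 DMSO array lay apart from the other 3 by Dixon's 95% criterion. Chance alone meets it in about 1 of 20 groups of independent values, whereas replicates 3 and 4 were nearly identical. The genes also share their arrays, so the 2 rates cannot be compared. AD32 has 3 arrays and was not tested. The array was replicate 1 in 16 genes, replicate 2 in 10 and replicate 4 in 3. Each value is the log2 level of the array that stood apart.

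Replicate 1 was the highest A549 DMSO array for C3 (9.62), IFITM2 (9.91), KCNN4 (7.11), KLF4 (7.69), PTPRM (9.72), SLC7A2 (12.66), TNFAIP2 (9.42), TSPAN8 (4.01) and TXNIP (5.61). It was the lowest for ANXA7 (9.53), EPHA5 (7.51), KRT18 (13.03), KRT8 (12.67), LRRCC1 (6.91), PTGR1 (11.03) and ZNF106 (7.58). Among these, C3 reached a level of 10.04 and 10.97 in treated A549 too.

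Replicate 2 was the highest for ANKRD1 (10.25), CDH17 (10.69), CGN (6.44) and TNFAIP3 (5.79), and the lowest for ALDH1A1 (13.33), BCHE (8.48), DKK1 (11.00), LCN2 (5.54), RAB3B (6.52) and SGCZ (6.97). Replicate 4 was the highest for KLF5 (8.72) and UNC5D (8.17) and the lowest for TRPC1 (6.41), where replicates 3 and 4 are otherwise nearly identical. The AD32 arrays of BCHE, EPHA5, SGCZ, LRRCC1 and TNFAIP3 were clear of these outlying arrays, as the choice of agreeing and switched genes required.

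Probe sets that name several genes or none were left out of the gene comparison. Of 5046 such probe sets 58 were called by limma with their own adjustment (1.15%), 42 higher in AD32 and 16 lower.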

How the results depend on the processing

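The number of called genes, 1045 with all arrays, was 525 with A549 DMSO replicates 3 and 4 averaged, 4215 with array weights, 5164 with both A549 DMSO replicate 1 and AD32 replicate 3 left out, and 166 against a minimum fold of 1.5. Leaving out 1 array gave 512 to 2164. Fitted to the AD32 and A549 DMSO arrays alone, limma called 740 genes, and 31 of the 189 named called genes lost their call. Called genes of at least 2-fold, 601 with all arrays, numbered 1678 with array weights, 2069 with both arrays left out, 166 against the minimum fold and 380 to 1151 with 1 array left out. The share of called genes that were higher, 61.6%, was 48.3% with array weights, 48.0% with both arrays left out, 58.5% after median centring, 66.3% against the minimum fold and 48.1% to 66.9% with 1 array left out. The causes were not tested.

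The labels do not say that the replicate numbers pair the samples. Deviations of same-numbered AD32 and A549 DMSO arrays correlated at 0.677, -0.264 and 0.411. Those of differently numbered arrays correlated at -0.612 to 0.534, so the values do not settle the pairing. A fit with the replicate number as a block called 650 genes, 386 of them higher, and 173 of the 190 agreeing genes. No named called gene changed sign in any alternative. Agreeing genes were chosen as called in all 7 fits with 1 array left out, so those fits say nothing of their stability. In the other alternatives all 190 stayed called except in the block, the minimum fold (64) and the low filter, which tested 167 and called 167. With 3 and 4 arrays, small differences can be missed, and a gene outside the calls is not shown to be unchanged.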
